A study of Homo sapiens with 8 samples.

Results

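Transcripts of ZNF genes, a large family of zinc finger genes, were followed through 4 lists of RNA sites recovered with the RNA-binding protein QKI7. Members were all genes whose name in any list begins with ZNF and a digit, and every peak under such a name was used. They came to 218 of the 6520 genes with a peak, and held 1420 of the 42083 peaks. The sgNS lists held 391 and 364 ZNF peaks in 175 and 163 genes, and the sgMETTL1 lists 356 and 309 in 161 and 150. By current RefSeq names 217 of the 218 were current symbols and ZNF720 was an older one (now KRABD5). All but ZNF781, a transcribed pseudogene, were protein-coding, and ZNF816-ZNF321P names a read-through of neighbouring genes.

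The study asked whether METTL1, an RNA 7-methylguanosine methyltransferase, affects the binding of QKI7 to its transcripts. RNA immunoprecipitation was sequenced in HepG2, a human liver cancer line, here carrying Cas9 and a lentiviral 3 x Flag-QKI7 transgene in every sample, the controls included, so that the protein was overexpressed throughout. One group of cells had a control guide, sgNS, and the other a guide against METTL1, sgMETTL1. Only GFP-positive cells were kept and expanded, and the labels do not say whether they were a pool or a clone.

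Each guide had 2 input and 2 Flag IP samples, 8 in all, and the data were 1 peak list per IP sample and its input, 4 lists in all. The labels do not say that replicates were separate cultures, so the spread behind each p-value is that between these samples and may be no more than technical. A comparison of 2 lists with 2 cannot reach an exact two-sided permutation p below 0.333. METTL1 had no peak in any list, so the lists do not check the knockout. Of 19 hepatocyte markers 7 had a peak in some list and 5 in all 4, among them SERPINA1, FGB and HNF4A. ALB had one in a single sgNS list, and AFP, APOA1, TTR and TF had none. Of 14 markers of other cells 3 had one, LYZ in all 4 lists, and PDGFRB and HBB in a single sgNS list each. Over all protein-coding genes 32.3% had a peak, so these counts do not check the cell type.

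QKI7 is an isoform of Quaking, a protein of the STAR family that binds single-stranded RNA with a core ACUAA and a short companion element, UAAC or a close form, and acts in splicing, RNA stability and localisation. ZNF genes mostly encode proteins with tandem C2H2 zinc fingers, each of which holds a zinc ion and can read a few bases of DNA. Many of them also carry a KRAB domain, which recruits TRIM28 and chromatin silencers to transposable elements, and they sit in dense clusters of recent duplicates. Their messages typically have one long last exon that holds all the fingers and the 3' untranslated region.

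A peak fell in 216 of 517 protein-coding ZNF genes of RefSeq (41.8%), against 6471 of all 20033 protein-coding genes (32.3%). Other zinc finger groups gave 26 of 42 ZBTB genes, 6 of 7 ZKSCAN genes, 10 of 21 ZFP genes and 7 of 21 ZSCAN genes. The lists hold no expression level, so silent and unbound genes cannot be told apart. The way reads that match several duplicates were counted is not given in the sources used here, and values of near-identical ZNF genes are uncertain for that reason. The midpoints of all 1420 peaks lay within the RefSeq span of the gene they name, and none stood at exactly the place of a peak under another name.

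The strongest peak of a gene is described here by its fold, the authors' ratio of IP over input. ZNF43, a KRAB zinc finger gene of chromosome 19, had folds of 187 and 228 in the sgNS lists and 204 and 130 in the sgMETTL1 lists. The peak spans chr19:21805039-21806563 on the minus strand (GRCh38, sgNS replicate 1), 1525 bases in 1 block near the 3' end. ZNF43 stood in the best 0.35% of ranked genes by mean percentile with either guide, and the guides overlapped.

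ZNF213 followed with folds of 162 and 193 with sgNS, then 132 and 144 with sgMETTL1. Its only site was a single peak of 6 exon blocks, 3284 exon bases over chr16:3135056-3142804 on the plus strand, from the first exon to the last base of the gene. Both sgMETTL1 folds lay below both sgNS folds, but as a rank score, the normal score of a gene's rank by fold within its list, the difference (sgMETTL1 minus sgNS) was -0.13 (SE 0.18, adjusted p in limma 0.840). The strongest peak of the other 13 best-ranked members had 1 block, except in ZNF429, where it joined 3. ZNF429 had folds of 72.7 and 102 with sgNS, then 73.5 and 112 with sgMETTL1. ZNF436 had 85.6 and 67.0, then 70.1 and 54.6. In both genes the guides overlapped.

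ZNF664 had the smallest p of the best-ranked members, with −log10 p of 1940 and 1720 for its strongest peak with sgNS, then 942 and 961 with sgMETTL1. Its folds of 60.1 and 49.8, then 54.1 and 42.5, were ordinary among the leaders. ZNF273 had folds of 90.3 and 31.7 with sgNS, then 91.4 and 41.6 with sgMETTL1, with −log10 p from 9.46 to 26.3. A high fold therefore stood on very different strengths of evidence from gene to gene. Across the members of a list the strongest fold ran from 1.5 to 187 and from 1.59 to 228 with sgNS, and from 1.60 to 204 and from 1.55 to 144 with sgMETTL1. Between 10 and 13 members per list reached a fold of 50 or more.

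**Figure D1:**
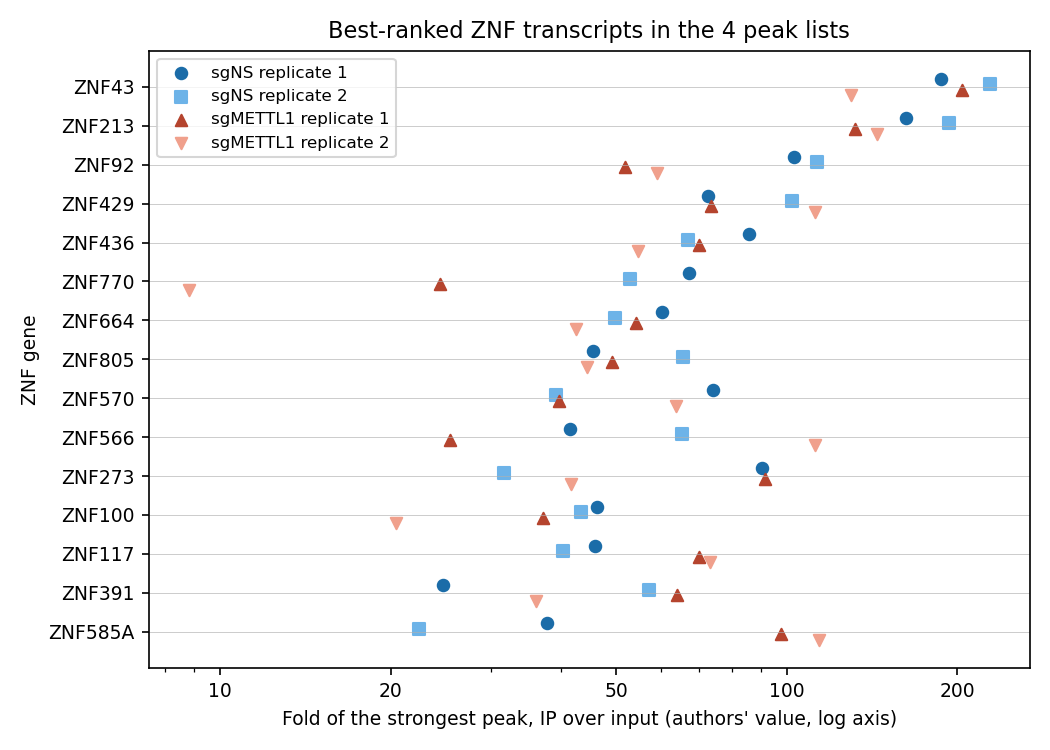
Fold of the strongest peak (IP over input, the authors' value, log axis) in each of the 4 lists for the 15 ZNF genes that rank among the best 12 with either guide, ordered by mean rank with sgNS. ZNF43 and ZNF213 stand above 100 in every list, ZNF213, ZNF92, ZNF770 and ZNF100 have both sgMETTL1 points left of both sgNS points, and ZNF585A and ZNF117 have both to the right.

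The start of the transcript is the only stretch of sequence that could be read here beside a peak, and 4 members had a peak over its first 50 bases. ZNF117, ZNF213, ZNF514 and ZNF768 are shown because their peaks cover the bases printed, and because they differ in the QKI core. Capitals mark ACTAA, the DNA form of the core. Sequences are from RefSeq (GRCh38.p14), and 187 of the 218 members had an entry.

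ZNF117, bases 1 to 30, chr7:64991007-64991036, minus strand: gACTAAtggccctaACTAAgtattaacccc

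ZNF213, bases 28 to 50, chr16:3135056-3135078, plus strand: gcggaagtgggatctcctgggcc

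ZNF514, bases 31 to 50, chr2:95159536-95159555, minus strand: cgcgcagacctgtactgggc

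ZNF768, bases 1 to 30, chr16:30526537-30526566, minus strand: agacgtccggcctcgggggcccgggctggg

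The ZNF117 start holds 2 copies of ACTAA and 2 of TAAC, the first TAAC overlapping the second ACTAA, all read on the transcribed strand. In the same 30 bases 1.06% of 35116 RefSeq genes hold ACTAA and 3.74% hold TAAC. The other starts hold neither. ZNF117 shares its start with ERV3-1, an endogenous retrovirus gene, and its start peaks share 151 to 682 bases with peaks named ERV3-1, so those reads cannot be assigned to either name. The ZNF117 site over the start had folds of 14.3 and 18.1 in the sgNS lists and 11.8 and 22.2 in the sgMETTL1 lists. In sgMETTL1 replicate 1 it was split into 2 peaks, and the one that covers the bases printed had a fold of 2.54. ZNF514 (fold 13.7) and ZNF768 (fold 2.44) had such a peak in 1 sgMETTL1 list each. The starts used for these 2 genes lie inside their gene spans, which reach chr2:95159848 and chr16:30532477. The ZNF768 peak runs upstream of the start used, to chr16:30526589. Whether it belongs to a transcript with that start was not tested.

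ZNF peaks had higher folds and weaker p-values than the peaks of other genes in each of the 4 lists. Their median fold was 5.79 and 5.64 with sgNS, then 5.87 and 6.25 with sgMETTL1, against 4.51, 4.23, 4.43 and 4.37 for other genes. Their median −log10 p was 7.13, 8.03, 5.52 and 6.56 in the same order, against 11, 11, 7.53 and 8.03. The 4 lists lay on the same side in both measures. These medians are a description over peaks, which are not replicates.

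Some strongest folds stood on a coarse scale. In each list a share of strongest folds equalled, within rounding, 4 to 30 whole multiples of a step fitted to that list, 2.315 and 2.112 with sgNS, then 3.048 and 2.776 with sgMETTL1. Members were at such multiples in 21.7 and 17.8% of cases with sgNS, then 21.7 and 25.3% with sgMETTL1, and other genes in 14.6, 14, 13.7 and 14.1%. Low folds could not count, yet the shares are over all genes. The median strongest fold of members was 11.4 and 9.99, then 10.2 and 9.86, against 7.41, 7.0, 6.745 and 6.38 for other genes. Shares within the range of 4 to 30 steps were not computed, so these do not show a coarser scale among members. A step 7% larger caught 0 to 1.33% of members. For example ZNF596, ZNF770 and ZNF772 were at whole steps in 2 or more lists. How these folds were computed is not given in the sources used here, and the reads behind them are unknown. Whether few input reads lie behind such folds was not tested, and the counting error of the folds of these 3 genes, which recur in the comparison of guides, cannot be given.

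Along the gene, ZNF peaks kept to the 3' end less tightly than others. By its midpoint, a peak sat in the final 10% of the gene span for 62.2 and 62.9% of ZNF peaks with sgNS, then 60.7 and 62.1% with sgMETTL1. For other genes the shares were 75.2, 75.2, 74.2 and 74.0%. The median distance from a ZNF peak to the 3' end was 2002 to 2050 bases in the 4 lists, against 1638 to 1660. The median ZNF gene was shorter, at 27160 to 28860 bases against 46130 to 47010, so its final 10% was a shorter stretch. Within 3000 bases of the 3' end lay 62.1 to 63.1% of ZNF peaks, against 68.0 to 68.6%, a smaller gap than in the final 10%. ZNF peaks were also simpler, with 1 block in 95.1 to 96.8%, against 90.3 to 90.7%. The difference in position was not tested, since peaks of a gene are not independent. Transcript parts (coding or untranslated) were not analysed here.

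**Figure D2:**
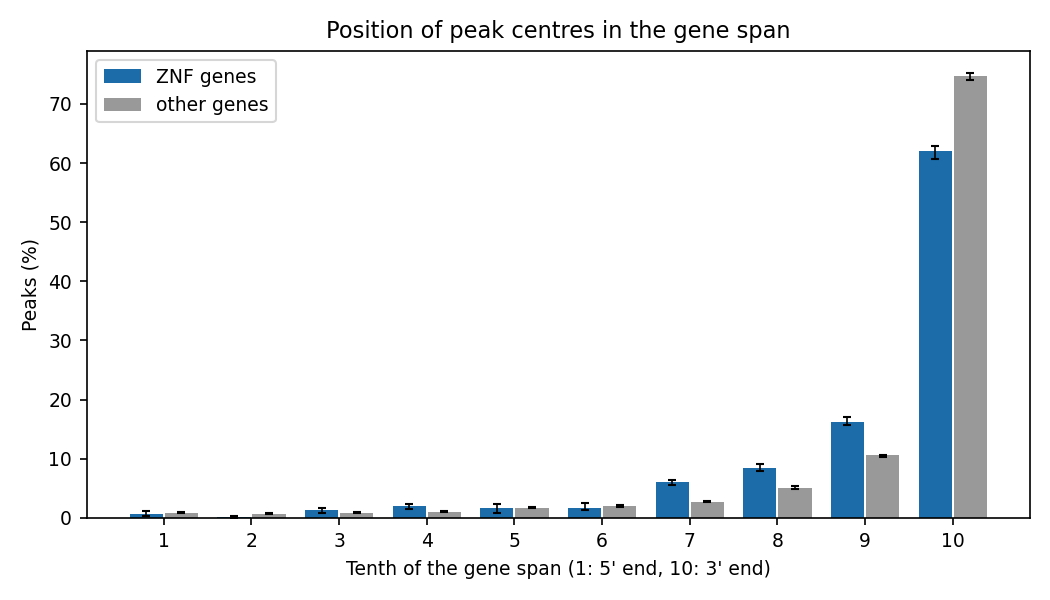
Share of peaks (%) whose centre lies in each of 10 equal parts of the gene span, from the 5' end (1) to the 3' end (10), for ZNF genes and other genes. Bars are the mean of the 4 lists and whiskers the lowest and highest list; the ZNF bar is lower in the last part, 60.7 to 62.9% against 74.0 to 75.2%, and higher in the part before it, 15.7 to 17.1% against 10.4 to 10.7%.

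Peaks of the same gene that share a base of exon were joined into sites, 532 in members of 14518 in all. A single site was found in 94 members, 2 or 3 in 77, and 4 or more in 47. ZNF714 had 11 sites, ZNF264, ZNF292 and ZNF652 had 10, and ZNF805 and ZNF850 had 8. In ZNF714 all sites lay within 6145 bases of the 3' end, and the site nearest that end was strongest in the first sgNS list, with folds of 47.7 and 18.0 with sgNS, then 10.7 and 8.33 with sgMETTL1. ZNF850 had no peak at all in sgMETTL1 replicate 2, while the sgNS lists held folds of 27.8 and 31.7 and the other sgMETTL1 list 10.7.

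ZNF652, which encodes a repressor partner of the CBFA2T3 corepressor, had its best site near the 3' end, with folds of 21.6 and 17.4, then 9.68 and 13.0. Its second site lay 9262 bases from the 3' end, with 14.4 and 11.7, then 9.24 and 9.42. Both sites were lower with sgMETTL1 in both lists, by 0.30 (SE 0.20) and 0.13 (SE 0.18) in rank score (adjusted p in limma 0.627 and 0.831).

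A smaller share of members than of all genes was named in both lists of a guide. Both sgNS lists named 144 members (66.1%), against 76.3% of all genes with a peak, and both sgMETTL1 lists named 134 (61.5%), against 67.5%. All 4 lists named 122 (56%, against 63.7%), and 49 appeared in 1 list alone (22.5%, against 15.5%). The single-list members were 20 and 11 with sgNS, then 10 and 8 with sgMETTL1, among them ZNF423, a regulator of fat cell precursors, and ZNF382. Of ZNF peaks in sgNS replicate 1, 72.4% fell in a site also held by replicate 2, against 79.9% for other genes, and the reverse shares were 78.9% against 84.4%. With sgMETTL1 they were 70.8% against 77.2% for replicate 1 and 78.6% against 81.2% for replicate 2. The last ZNF share has an exact 95% interval of 73.6 to 83.1%, which includes the value of other genes. The intervals of the earlier shares, 67.7 to 76.8%, 74.3 to 82.9% and 65.8 to 75.5% in the order given, do not. All these intervals cover counting error only and take peaks of the same gene as independent, which they are not. Over sites, 181 were in all 4 lists (34%, against 41.3%) and 214 in 1 list (40.2%, against 32.4%).

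Spearman's rho of the strongest fold was 0.77 over the 144 members in both sgNS lists and 0.74 over the 134 in both sgMETTL1 lists, against 0.87 and 0.85 over all genes in them. Between guides it was 0.65 to 0.77 over members, against 0.84 over all genes in each of the 4 pairs of lists, so the range reached the value between the sgNS replicates. These are correlations across genes, which are not independent replicates, and the lists of a guide share the assay and the gene models.

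The loss of METTL1 is first read in presence. A gene named in both sgNS lists but in no sgMETTL1 list counts as lost, and one named the other way round as gained. Lost members numbered 10 (4.59%, against 4.63% of all genes), and gained members 6 (2.75%, against 1.52%). The share lost was near the background. Without 1 list at a time the counts ran from 11 lost (5.05%, against 8.02% of all genes, without sgMETTL1 replicate 2) to 30 (13.8%, against 9.92%, without sgNS replicate 2). Gained counts ran from 7 (3.21%, against 2.55%, without sgNS replicate 2) to 16 (7.34%, against 5.11%, without sgMETTL1 replicate 2). A guide with 1 list left needed presence in, or absence from, that list only, so these counts could only rise. The sgNS lists were longer, and with equal numbers of top-ranked peaks in each list 7 members were lost (3.21%, against 3.07%) and 9 gained (4.13%, against 2.35%), so that gains then outnumbered losses. By peak overlap in place of names 10 were lost (4.59%, against 5.41%) and 9 gained (4.13%, against 2.04%).

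The lost genes were ZNF781, ZNF223, ZNF300, ZNF280C, ZNF17, ZNF845, ZNF486, ZNF275, ZNF766 and ZNF106. ZNF781 had folds of 20.8 and 9.51 with sgNS, with −log10 p of 3.83 and 3.0, and ZNF106 had 1.65 and 1.70, with 3.08 and 3.31. The ZNF781 folds came from different sites. ZNF486 likewise had no site in both sgNS lists, so these genes were found again by name only. ZNF845 had the smallest p of the 10 in a single list, with −log10 p of 8.28 and 3.25 at folds of 4.52 and 5.49. Over the 10 genes the −log10 p ran from 3.0 to 8.28.

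The gained genes were ZNF154, ZNF318, ZNF654, ZNF276, ZNF841 and ZNF768. ZNF154 ranked best, with folds of 6.10 and 13.9 with sgMETTL1 and −log10 p of 3.27 and 4.21. These folds came from different sites, 269 and 449 bases from the 3' end, each held by a single list. ZNF654, ZNF276 and ZNF841 likewise had no site in both sgMETTL1 lists, so their gain was repeated by name only. ZNF768 had folds of 1.88 and 2.44. None of the 6 exceeded a −log10 p of 5.59. At the level of sites, 31 were lost (5.83%, against 7.42%) and 10 gained (1.88%, against 1.21%).

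For genes in all 4 lists the strength was compared. On the rank score of each gene's strongest fold, limma compared the 2 sgMETTL1 scores with the 2 sgNS scores over all 4150 genes, 122 of them members. The members in the fit are those found in every list, not all members. At an FDR of 5% no member was called, nor any other gene (0% of genes tested), and the smallest adjusted p was 0.352 among members and 0.221 among all genes. Without adjustment 8 members had p under 0.05 with a lower score (6.56%, against 4.72%) and 5 with a higher one (4.1%, against 5.11%). These shares were near the background.

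The score was lower with sgMETTL1 in 73 of the 122 members (59.8%, against 52.2% of all genes tested), and the median difference was -0.06, against -0.02. Both sgMETTL1 scores lay below both sgNS scores in 34 members (27.9%, against 22.7%) and above them in 16 (13.1%, against 20%). Over the 181 member sites of the site fit, of 6003 in all, none was called at an FDR of 5% (0% of sites). Without adjustment 10 were lower (5.52%, against 5.05%) and 8 higher (4.42%, against 5.41%). The score was lower in 100 member sites (55.2%, against 51.9% of all sites), with a median difference of -0.04, against -0.02. On log2 folds in place of ranks, 15 members were lower at an unadjusted p under 0.05 (12.3%, against 9.2% of all genes) and 5 higher (4.1%, against 2.84%). Of member sites 23 were lower (12.7%, against 10.5%) and 4 higher (2.21%, against 2.65%). On that scale the median over all genes was itself -0.24.

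**Figure D3:**
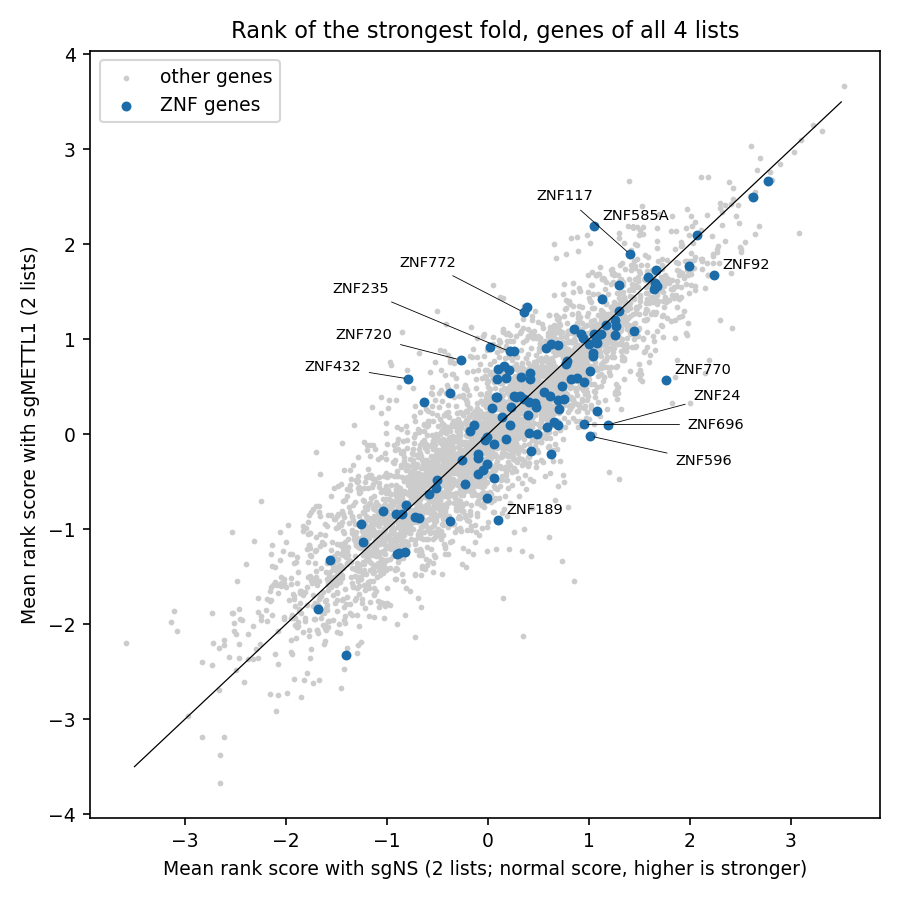
Mean rank score with sgNS (x axis) and with sgMETTL1 (y axis), each over 2 lists, for the 4150 genes of all 4 lists, with the 122 ZNF genes in blue and a line of equality. The 12 named genes have the smallest p in each direction; ZNF189, ZNF596, ZNF24, ZNF696, ZNF770 and ZNF92 lie below the line and ZNF432, ZNF720, ZNF235, ZNF772, ZNF117 and ZNF585A above it, and none passed the FDR.

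ZNF189 had the smallest p of the lower members. Its strongest fold was 9.84 and 9.99 with sgNS, then 3.05 and 3.57 with sgMETTL1. The replicates of each guide were close together and the guides far apart. The score difference was -1.0 (SE 0.20, 2 lists a guide, adjusted p in limma 0.352). The gene had a single site, chr9:101409798-101410660 on the plus strand, at its 3' end.

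ZNF770 had folds of 67.1 and 52.8 with sgNS, then 24.4 and 8.81 with sgMETTL1. Both sgMETTL1 values were below both sgNS values, although they differed from each other more than the sgNS values did. The score difference was -1.19 (SE 0.31, adjusted p in limma 0.371). The value came from the site at its 3' end, chr15:34978341-34979269 on the minus strand. The next site, 1586 bases from the 3' end, had 5.84 and 4.86, then 4.47 and 2.93, a difference of -0.28 (SE 0.24).

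ZNF92, a KRAB zinc finger gene of the chromosome 7 cluster, had folds of 103 and 113 with sgNS, then 51.8 and 58.9 with sgMETTL1. The guides did not overlap, and the gene stayed among the best 12 members with either. Its score differed by -0.57 (SE 0.19, adjusted p in limma 0.461). ZNF596 (32.4 and 23.2, then 5.49 and 9.72) and ZNF696 (29.9 and 22.9, then 12.6 and 5.67) had differences of -1.03 and -0.84. The remaining members lower at p under 0.05 were ZNF24, ZNF207 and ZNF516.

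Among the higher members ZNF772 had folds of 14.5 and 12.1 with sgNS, then 30.5 and 38.9 with sgMETTL1. Its score difference was 0.92 (SE 0.20, adjusted p in limma 0.352). The −log10 p of these peaks was 27.4 and 21.6 in the sgNS lists and 7.52 and 7.05 in the sgMETTL1 lists. Raw −log10 p was lower in the sgMETTL1 lists for other genes too, with the medians given above, so its order between guides is not read here.

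In ZNF585A the guides did not overlap either. Its folds were 37.8 and 22.4 with sgNS, then 97.5 and 114 with sgMETTL1, a score difference of 1.14 (SE 0.25, adjusted p in limma 0.352). Ranked by p within the lists, it was still higher with sgMETTL1, by 0.19 (adjusted p in limma 0.317). The peak belongs to the site chr19:37149658-37150408 on the minus strand, 4118 bases from the 3' end.

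ZNF720 had folds of 8.55 and 5.55, then 16.8 and 22.2, from a single site (difference 1.05, SE 0.24, adjusted p in limma 0.352). ZNF117 had folds of 45.9 and 40.3, then 70.1 and 73.1 (difference 0.48, SE 0.18, adjusted p in limma 0.498), from a site that does not touch ERV3-1 peaks. For both genes the guides did not overlap. ZNF235 had 15.9 and 8.26, then 27.4 and 16.7, and was the next by p, at 0.0591 in limma (adjusted p 0.516).

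ZNF432 had the largest positive difference of the named members, 1.37 (SE 0.36, adjusted p in limma 0.375), with folds of 3.00 and 6.34, then 18.3 and 12. The values compared came from different places. The 18.3 belonged to a site 31 bases from the 3' end that neither sgNS list held, and the 12 to a site 329 bases from the end. At the only site of all 4 lists, 1015 bases from the end, the folds were 3.00 and 6.34, then 9.90 and 3.52, and the guides overlapped.

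When genes were ranked by the smallest p of their peaks instead of the fold, 8 members were lower (6.56%, against 9.54% of all genes tested) and 7 higher (5.74%, against 10.9%) at an unadjusted p under 0.05, and 0 of the 13 above were among them. The members' shares were below the background on this ranking. The sign turned for ZNF117 (-0.23), ZNF772 (-0.26) and ZNF24 (0.07), with adjusted p in limma of 0.263, 0.331 and 0.744 on that ranking. Over the 10 alternatives to the main setting their adjusted p ranged from 0.263 to 0.813, 0.326 to 0.627 and 0.326 to 0.744. ZNF189 had a negative difference under all 10, with an unadjusted p under 0.05 in 9 of them.

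Of the 45 members with 2 or more sites in the site fit, 13 had all sites lower with sgMETTL1 (28.9%, against 24.3% of all 1343 genes with 2 or more), 8 had all higher (17.8%, against 20.4%) and 24 had both (53.3%, against 55.2%). These shares were near the background. ZNF24, a SCAN-domain zinc finger gene, had folds of 22 and 50.7 with sgNS, then 8.74 and 4.01 with sgMETTL1 at its 3' end. Its site 2917 bases upstream had 5.93 and 9.94, then 9.02 and 7.62. The guides were apart at the first and overlapped at the second, with differences of -1.35 (SE 0.38) and 0.23 (SE 0.25). The difference between the sites was not tested.

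ZNF426 had neighbouring sites on either side. At 3740 bases from its 3' end the folds were 10.4 and 9.45, then 5.54 and 3.89, a difference of -0.58 (SE 0.21, adjusted p in limma 0.440). At 2932 bases they were 3.47 and 5.07, then 6.10 and 6.48, a difference of 0.65 (SE 0.24, adjusted p in limma 0.463). The guides did not overlap at either. The strongest fold of the gene came from other places in both replicate 1 lists, 18.5 and 21.3, and its gene score differed by 0.02.

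ZNF570 had 4 sites of all 4 lists. Its site 3046 bases from the 3' end was lower, with folds of 22 and 9.86, then 4.06 and 6.48 (difference -0.79, SE 0.31), while the site nearest the end had 13.9 and 21.1, then 36.6 and 22.2 (difference 0.49, SE 0.24). ZNF516, which encodes an activator of brown fat genes, had 3 sites with differences of -0.62, -0.33 and -0.09. None of these passed the FDR in limma.

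Members with a described role outside this series were followed from a list of 40 names. A peak was found in 24 (41.8% of all protein-coding ZNF genes had one), and 20 were in all 4 lists (56% of all members were). Of these 20 the score was lower with sgMETTL1 in 11, 2 had an unadjusted p under 0.05 (ZNF92 and ZNF207), none was lost or gained, and the median difference was -0.03. Over all genes tested 52.2% were lower, 9.83% had an unadjusted p under 0.05 and the median was -0.02. The values of the 20 in these respects were near the background. Over all genes with a peak 4.63% were lost and 1.52% gained. ZNF10, the source of the KRAB domain used in gene silencing tools, had folds of 19.1 and 9.81 with sgNS, then 19 and 72.2 with sgMETTL1. The last list stood apart from the other 3.

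ZNF91, a repressor of SVA retrotransposons, had folds of 28.5 and 28.7 with sgNS, then 19.9 and 20.3 with sgMETTL1. The replicates agreed closely and the guides were apart, yet the score differed by only -0.22 (SE 0.18, adjusted p in limma 0.701). Its relative ZNF93, a repressor of LINE-1 elements, was in 1 list of each guide, with folds of 25.4 and 16.7 and −log10 p of 4.97 and 2.74. ZNF445, which protects genomic imprints, had 10.2 and 4.93, then 4.84 and 6.48, and the guides overlapped.

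ZNF217, a breast cancer oncogene that works with CtBP corepressors, had folds of 9.16 and 10.4 with sgNS, then 27.4 and 5.55 with sgMETTL1 at its 3' end. The −log10 p of those peaks was 495 and 491, then 5.03 and 2.59, but the gene's smallest p in the sgMETTL1 lists belonged to another of its peaks, with −log10 p of 107 and 114. ZNF703, an oncogene of luminal breast cancer, had 34.3 and 40, then 29.7 and 29.8 (difference -0.13, SE 0.18). ZNF207, a spindle protein that carries BUB3 to kinetochores, had 2.14 and 3.52, then 1.60 and 1.55 (difference -0.92, SE 0.31, adjusted p in limma 0.462), at low folds throughout.

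ZNF143, an activator of small nuclear RNA genes, had folds of 15.0 and 6.64 with sgNS, then 7.31 and 19.4 with sgMETTL1. ZNF148 had 57.9 and 15.5, then 27.4 and 61.1. In both genes the replicates of a guide were further apart than the guides. ZNF326, a part of the DBIRD complex that links transcription with splicing, had 31.9 and 23.3, then 20.6 and 13.1 (difference -0.35, SE 0.21, adjusted p in limma 0.614). ZNF687 had 20.3 and 32.0, then 21.4 and 30.1. ZNF711, an X-linked gene of intellectual disability, had 32.4 and 9.51, then 7.31 and 5.0 (difference -0.83, SE 0.40, adjusted p in limma 0.564). The −log10 p of these peaks was 6.45 and 3.73, then 4.08 and 3.67. No site of ZNF711 was held by all 4 lists, so the folds compared do not all come from the same place.

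By chromosome, 103 of the 250 protein-coding ZNF genes of chromosome 19 had a peak (41.2%), and 113 of 267 elsewhere (42.3%). Of those with a peak, 52 on chromosome 19 were in all 4 lists (50.5%), against 69 elsewhere (61.1%). Clusters were defined as runs of at least 8 protein-coding ZNF genes with gaps of at most 500 kb. The run from ZNF101 to ZNF254, which holds ZNF43, ZNF91, ZNF93, ZNF100, ZNF429 and ZNF714, had 22 of 37 genes with a peak and 12 in all 4 lists. The run from ZNF628 to ZNF835 had 2 of 17 and none in all 4.

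On chromosome 7, the run from ZNF722 to ZNF92 had 5 of 11 genes with a peak, ZNF680, ZNF107, ZNF273, ZNF117 and ZNF92, and all 5 were in every list. ZNF92 and ZNF117 of this run were on opposite sides in the guide comparison. The median score difference was -0.20 over the 12 fitted genes of the ZNF101 run and 0.05 over the 5 of the ZNF722 run. Differences between runs were not tested.

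**Figure D4:**
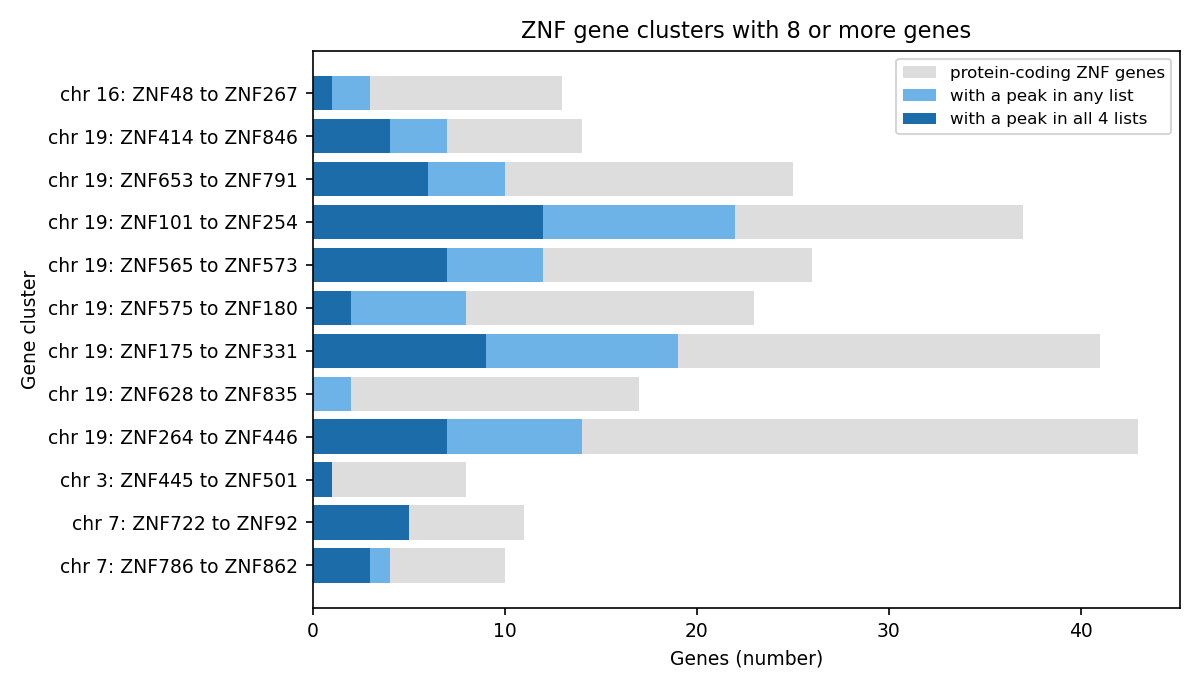
Number of protein-coding ZNF genes in each run of at least 8 genes (gray), with a peak in any list (light blue) and with a peak in all 4 lists (dark blue), named by first and last gene. The ZNF101 to ZNF254 run has the most genes with a peak, 22 of 37, and the ZNF628 to ZNF835 run 2 of 17.

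Partners of KRAB zinc finger proteins were followed from a list of 24 corepressor genes. A peak was found in 16 (32.3% of all protein-coding genes had one), and 12 were in all 4 lists (63.7% of all genes with a peak were). The 1 lost was CBX5 (a heterochromatin protein). TRIM28, the corepressor that KRAB domains bind, had no peak in any list. Of the 12 fitted genes 8 had a lower score with sgMETTL1, the median difference was -0.23, 2 had an unadjusted p under 0.05 and none passed the FDR in limma. Over all genes tested the median was -0.02, 52.2% were lower and 9.83% had such a p, and 4.63% of genes with a peak were lost.

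The 2 were ATF7IP, the partner of the histone methyltransferase SETDB1, with folds of 12.2 and 8.98, then 36.6 and 22.2 (difference 0.96, SE 0.22, adjusted p in limma 0.352), and RBBP7, a histone chaperone, with 2.82 and 3.12, then 2.02 and 1.46 (difference -0.92, SE 0.32, adjusted p in limma 0.472). In both the guides did not overlap. The best-ranked corepressor messages included HDAC2, a histone deacetylase, with 48.9 and 28.5, then 33.5 and 38.9, and DNMT3B, a DNA methyltransferase, with 24.5 and 35.9, then 25.6 and 11.3. SETDB1 itself had 4.85 and 3.12, then 3.56 and 2.23. The guides overlapped in these 3 genes.

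Of 17 names of the HUSH complex and retroelement silencing, FAM208A and its newer name TASOR counted apart, 13 had a peak, 7 were in all 4 lists and 1, PPHLN1 (the HUSH subunit periphilin), was lost. The score was lower in 5 of the 7, with a median difference of -0.14, and 1 had an unadjusted p under 0.05, MORC3 (5.79 and 6.63, then 3.47 and 3.11, adjusted p in limma 0.489). The shares over all genes are those given for the corepressors (52.2% lower, 9.83% with such a p, 4.63% lost, median -0.02). As there, 32.3% of protein-coding genes had a peak, and 63.7% of genes with a peak were in all 4 lists. FAM208A, a HUSH subunit, led the list with folds of 86.6 and 93.1 with sgNS, then 70.0 and 51.9 with sgMETTL1. The guides did not overlap, and its difference was -0.38 (SE 0.18, adjusted p in limma 0.564).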

How the data were processed

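RNA immunoprecipitation of Flag-QKI7 was sequenced in HepG2-Cas9 cells with sgNS or sgMETTL1, as input and IP RNA in duplicate libraries (2 each). UV was used to cross-link the cells, per the labels' protocols; they were lysed and sonicated, and stranded libraries were made. STAR and the build GRCh38 are named in the submitters' processing notes. Not given in the sources used here are the peak caller, its scaling between samples and its cutoff. Lists were kept per replicate: the authors deposited 1 peak list per IP sample and its input, not pooled. The fold of each peak is a ratio of IP over input, as deposited by the authors. The p-value of each peak, and its base-10 logarithm and that of the FDR, which were handled as a score, are likewise as deposited by the authors. No read counts were analysed, and the depth is unknown for every value.

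A peak's fold and p are the authors' own. Lists were compared by ranks within a list, and raw folds and −log10 p printed side by side are descriptions with no stated scaling between lists. Genes were compared by the rank of their strongest fold, as normal scores, with limma 3.58.1 in R 4.3.3 (two-sided, Benjamini-Hochberg over all genes, no covariate), and sites likewise. Sites join peaks of 1 gene and strand that share at least 1 exon base. The fold step of each list was sought between 2 and 4. The fit, the joining and the step were tested on simulated data. The simulated shifts were larger than any member difference named here, so they do not show whether smaller ones could be called. Names, spans and starts came from RefSeq of GRCh38.p14. Python 3.11.15, pandas 2.3.3, numpy 2.4.6 and scipy 1.17.1 were used, with matplotlib 3.10.9 for figures.

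Members and gene lists were chosen with earlier results of these data known. Members named are the 12 best-ranked of each guide, up to 10 lost and gained, the 6 with the smallest p in each direction over genes and over sites, the 6 with the most sites, those with a described role, those of clusters, and up to 4 of each other list. ZNF514, the sites of ZNF570, and CBX5, TRIM28, ATF7IP, RBBP7, SETDB1, MORC3 and PPHLN1 were chosen after their values were seen. Protein domains and motifs within peaks were not analysed here.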

Additional observations from a re-analysis of the deposited data

How the results depend on the processing

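Of 99 alternative values, 79 stayed within 1.5 times or 1 replicate spread of the reported value and 20 moved. Some of the 79 could not change, such as the count in both sgMETTL1 lists when an sgNS list was left out. A change of balance was not scored. With equal numbers of top-ranked peaks, lost and gained members turned from 10 and 6 to 7 and 9. On log2 folds 15 members were lower at an unadjusted p under 0.05 (12.3%, against 9.2% of all genes). The median difference of member genes was -0.23, against -0.24 over all genes. Of member sites 23 were lower (12.7%, against 10.5% of all sites) and 4 higher (2.21%, against 2.65%). The median of member sites was -0.22, against -0.22 over all sites. Averaging the peaks of each gene left 5 members lower (4.1%, against 5.06%) and 6 higher (4.92%, against 5.42%), where the main setting had 8 and 5. With 50% reciprocal overlap 6 sites were lower (4.2%, against 4.8%) and 5 higher (3.5%, against 5.31%). In the last 20% of the span lay 78.1% of ZNF peaks, against 85.2% of other peaks, by mean over lists. In the last 10% the shares were 62.0%, against 74.7%. The wider part could not hold fewer peaks, and the gap to other genes was smaller there. Leaving out 1 list could only raise the lost and gained counts, since it removed a condition. Without sgNS replicate 1, 21 genes were lost (9.63%, against 7.73% of all genes) and 11 gained (5.05%, against 2.82%). Without sgNS replicate 2, 30 were lost (13.8%, against 9.92%) and 7 gained (3.21%, against 2.55%). Without sgMETTL1 replicate 1, 21 were lost (9.63%, against 9.22%) and 14 gained (6.42%, against 5.05%). Without sgMETTL1 replicate 2, 11 were lost (5.05%, against 8.02%) and 16 gained (7.34%, against 5.11%). With 1 list left out, the median score difference of members ran from -0.09 to -0.06 over genes, against -0.03 to -0.004 over all genes. Over member sites it ran from -0.06 to -0.04, against -0.02 to -0.01 over all sites. A guide with 1 list left was assumed to vary like the other guide. No gene or site of a member passed an FDR of 5% in limma under any alternative run. The replicate number as a block gave 8 genes lower (6.56%, against 4.34% of all genes) and 6 higher (4.92%, against 4.82%). It gave 9 sites lower (4.97%, against 4.38% of all sites) and 10 higher (5.52%, against 5.53%). Deviations of same-numbered lists had a correlation of -0.0015 over genes, so no shared deviation was seen in the rank scores. It cannot tell whether same-numbered samples were handled together. The planned search for KRAB boxes was not run, since protein sequences were not used here. The causes of these shifts were not tested. The depth behind each value is unknown.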
